A study of Mus musculus with 6 samples.

Results

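The interferon-inducible GTPases are large and mid-sized GTP-hydrolysing proteins that cells make after exposure to interferons, above all interferon-γ (IFN-γ). The mouse genes examined here were 10, namely 6 guanylate-binding proteins (*Gbp2*, *Gbp3*, *Gbp4*, *Gbp5*, *Gbp6* and *Gbp7*) and 4 immunity-related GTPases (*Igtp*, *Irgm1*, *Irgm2* and *Iigp1*). They were taken by exact gene symbol from a table of 21358 entries, and 10 of 10 symbols were found. The values are RNA-seq measurements of whole B16-F10 tumors, a gp100-positive mouse melanoma line grown under the skin of C57/BL6 mice. The mice were irradiated (500 cGy, total body) and, with tumors of at least 150 mm3, given 2000000 gp100-activated splenocytes from pmel-1 donors, whose T cells carry a transgenic receptor for gp100. The adoptive cell transfer (ACT) was supported by IL-2 (0.4 mg/kg a dose, given on consecutive days, in cycles of 9 days) or by NKTR-214, a pegylated IL-2 (0.8 mg/kg, 1 dose a cycle). Tumors were taken at day 12, 3 mice per group with 1 library each. The mice were females, 6 to 8 weeks of age (pmel-1 donors 5 to 7 weeks), and ACT with vehicle was not analysed here, so the level of these genes without either cytokine is not known.

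IFN-γ binds a receptor made of IFNGR1 and IFNGR2, which activates the kinases JAK1 and JAK2. The signal reaches GAS elements in the promoters of target genes, and factors of the IRF family, such as IRF1, bind ISRE elements there. Guanylate-binding proteins assemble on the vacuoles and surfaces of intracellular pathogens and promote inflammasome activation, whereas immunity-related GTPases act on such vacuoles, with *Irgm1*, *Irgm2* and *Igtp* encoding the regulatory GMS subfamily. Type I interferons also induce many of these genes. In a tumor, their transcripts come from any cell that senses interferon, melanoma cells included, and are widely used as a readout of IFN-γ action.

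The promoter letters through which interferons act are shown first, because the rule that chose the genes did not use them. RefSeq promoter windows (GRCm38.p6) were found for 7 of the 10 genes, and *Gbp4*, *Gbp6* and *Iigp1* had no entry. In the 250 bases before the RefSeq start, both strands were searched. GAS was sought as TTCNNNGAA, which reads the same on either strand, and ISRE as a pair of GAAA runs with any 2 bases between them. Some of these starts differ from the GENCODE starts given below. The windows of *Gbp5*, *Irgm1* and *Irgm2* lie inside the GENCODE spans of those genes. ISRE letters were present in 7 of 7 genes, against 2.98% of 32851 promoter windows in the genome, and GAS letters in 4 of 7 genes, against 7.02% of windows. *Gbp3* had a second window, with neither kind of letters. Of 9 other GTPase genes of the same families with an entry, 4 held ISRE letters and 3 held GAS letters. The 2 motifs overlap in no printed stretch, and where 2 ISRE matches overlap, in *Gbp3* and *Irgm1*, they are shown as 1 run. A match describes the letters and was not tested as a binding site. In the 3 genes whose window touched no annotated exon, both kinds of letters stood within 110 bases of the start, and the stretch from -110 to -21 (plus strand) is printed with the motif letters in capitals. The *Gbp7* stretch lies at chr3:142530226-142530315, the *Igtp* stretch at chr11:58199446-58199535 and the *Irgm2* stretch at chr11:58214867-58214956.
Gbp7: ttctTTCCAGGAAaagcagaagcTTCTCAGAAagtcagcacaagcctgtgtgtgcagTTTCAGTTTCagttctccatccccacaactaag
Igtp: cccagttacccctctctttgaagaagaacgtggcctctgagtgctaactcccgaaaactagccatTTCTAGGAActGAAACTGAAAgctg
Irgm2: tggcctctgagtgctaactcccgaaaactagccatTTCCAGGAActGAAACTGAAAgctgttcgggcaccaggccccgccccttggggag

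*Gbp7* held 2 GAS matches upstream of its ISRE letters. The neighbouring genes *Igtp* and *Irgm2* held 1 of each, side by side, and the longest identical run of their windows was 55 bases. For the other 4 genes, 30 bases around the ISRE letters are printed, since annotated exons reach into their windows. The *Irgm1* window lies wholly in annotated exons (250 of 250 bases). These lie at chr3:142620594-142620623 for *Gbp2*, chr3:142559992-142560021 for *Gbp3* and chr3:142496759-142496788 for *Gbp5*, on the plus strand. The *Irgm1* stretch lies at chr11:48871428-48871457 on the minus strand.
Gbp2: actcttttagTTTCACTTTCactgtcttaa
Gbp3: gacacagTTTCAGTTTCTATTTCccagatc
Gbp5: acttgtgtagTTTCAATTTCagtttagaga
Irgm1: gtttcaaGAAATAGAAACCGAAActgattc

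**Figure D1:**
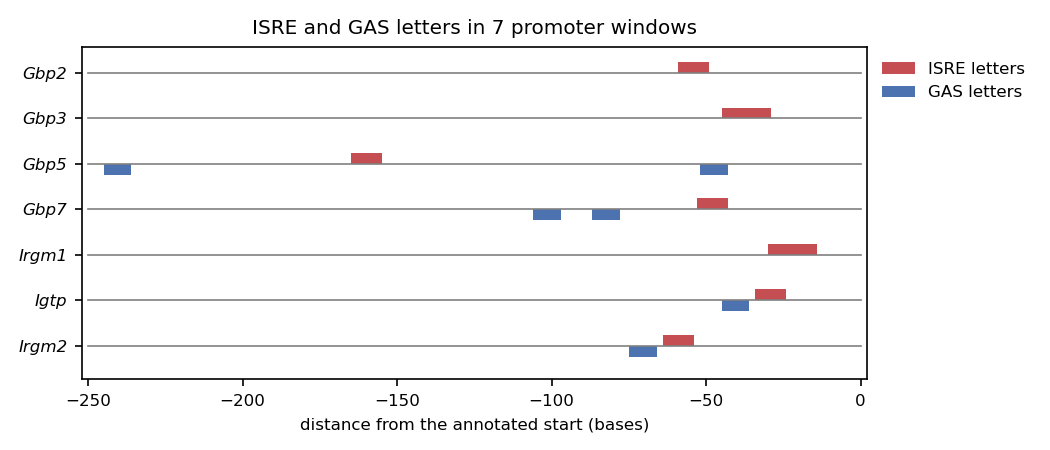
Positions of ISRE letters (red) and GAS letters (blue) in the 250 bases before the RefSeq start of 7 GTPase genes. The windows of *Gbp5*, *Irgm1* and *Irgm2* lie inside the GENCODE spans of those genes. The x axis is the distance from the start in bases and each line is 1 promoter window of a gene (for *Gbp3*, the window with letters of its 2). ISRE letters stand in 7 of 7 genes and GAS letters in *Gbp5*, *Gbp7*, *Igtp* and *Irgm2*.

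The genes lie in clusters (GENCODE vM21, GRCm38). On chromosome 3 stand *Gbp5* (142493978 to 142522344), *Gbp7* (142530342 to 142550149), *Gbp3* (142560026 to 142573209) and *Gbp2* (142620602 to 142638008). *Gbp4* (105115767 to 105139586) and *Gbp6* (105270702 to 105293698) stand on chromosome 5. *Irgm1* (48861968 to 48871683) stands on chromosome 11, as do *Igtp* (58199556 to 58207591) and *Irgm2* (58199618 to 58222782), whose spans overlap. Of the *Igtp* exon bases, 8.01% lie in *Irgm2* exons. *Iigp1* stands on chromosome 18. Family members resemble each other, so 50-base windows of their transcripts were compared with all other annotated genes. For *Gbp6*, 70.7% of windows also occur in another gene, chiefly the overlapping *Gm43302*, and its values are therefore uncertain. The shared part was 12.7% for *Gbp7*, 11.8% for *Igtp* and between 0.379% and 7.83% for the other 7 genes.

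Values are FPKM (fragments scaled to exon length and to the mapped fragments of the library), which allow levels of different genes to be compared per length. They are given for replicates 1, 2 and 3 of a group in that order. For the comparison, limma was fitted to log2(FPKM + 1) of the 14172 genes whose mean FPKM reached 0.1, p-values were adjusted over those genes (Benjamini-Hochberg), and genes under 0.05 were called. Fold changes of low genes are understated on this scale. With 3 tumors against 3, an exact permutation test of a single value cannot go below p = 0.1. The smallest steps of low values put the relative depth of the 6 libraries between 0.877 and 1.03, at an estimated 17.7 to 20.9 M reads, and at least 1585 estimated reads stood behind each GTPase value. The tumor label was borne out by its melanocyte markers, whose summed level ran from 5413 to 6933 FPKM in ACT + IL-2 and from 2664 to 3763 FPKM in ACT + NKTR-214, with 5 of 7 markers lower. Markers of T cells rose in 5 of 5 cases (sum 9.85 to 22.1 against 121 to 256 FPKM), those of macrophages and monocytes in 7 of 7 (199 to 553 against 996 to 1804 FPKM), those of fibroblasts in 6 of 6, those of neutrophils in 4 of 4 tested, those of dendritic cells in 4 of 5, those of NK cells in 2 of 4 and those of endothelium in 1 of 5. With each of the 3 other scalings tried (75th percentile, TPM and quantile), 3 of 6 fibroblast markers and 6 of 7 macrophage markers were higher, and with quantile normalization 2 of 5 dendritic cell markers were, while 7 of 7 melanocyte markers were lower with each. The log2 fold changes of the fibroblast and macrophage markers whose calls were lost stayed positive, from 0.80 for *Adgre1* to 1.13 for *Col3a1*. B cell markers stayed under 2 FPKM in sum. Levels of marker RNA thus differed between the groups. In bulk RNA, fewer cells of a type and less RNA per cell cannot be told apart. The part of cell makeup in the GTPase values was not tested.

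None of the 10 GTPase genes was higher in ACT + NKTR-214, and *Iigp1* alone was lower at the threshold (limma). At an unadjusted p under 0.05, 0 were higher and 2 were lower, beside 26.2% and 13.2% of the genes tested. Over the genes tested, 20.7% were higher and 8.28% were lower, 29.0% in all. With 75th percentile scaling, TPM and quantile normalization, 24.7%, 31.2% and 31.9% of the genes tested were lower, beside 2, 3 and 2 of the 10 GTPase genes. The median log2 fold change of the 10 genes was -0.30, beside 0.05 for the genes tested, and with 1 tumor left out it ran from -0.46 without ACT + NKTR-214 replicate 3 to -0.17 without ACT + NKTR-214 replicate 2. Of the log2 fold changes, 7 of the 10 were negative, beside 44.3% of the genes tested, and single values ran from -0.60 for *Iigp1* to 0.15 for *Gbp3*. The ranges of the groups were apart in 2 of 10 genes, *Gbp7* and *Iigp1*, both lower. Ranges were apart in 42.4% of the genes tested (27.1% higher and 15.3% lower). *Ifng* itself, in the same tumors, had 2.25, 1.05 and 1.46 FPKM in ACT + IL-2, against 7.83, 7.32 and 5.57 FPKM in ACT + NKTR-214.

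**Figure D2:**
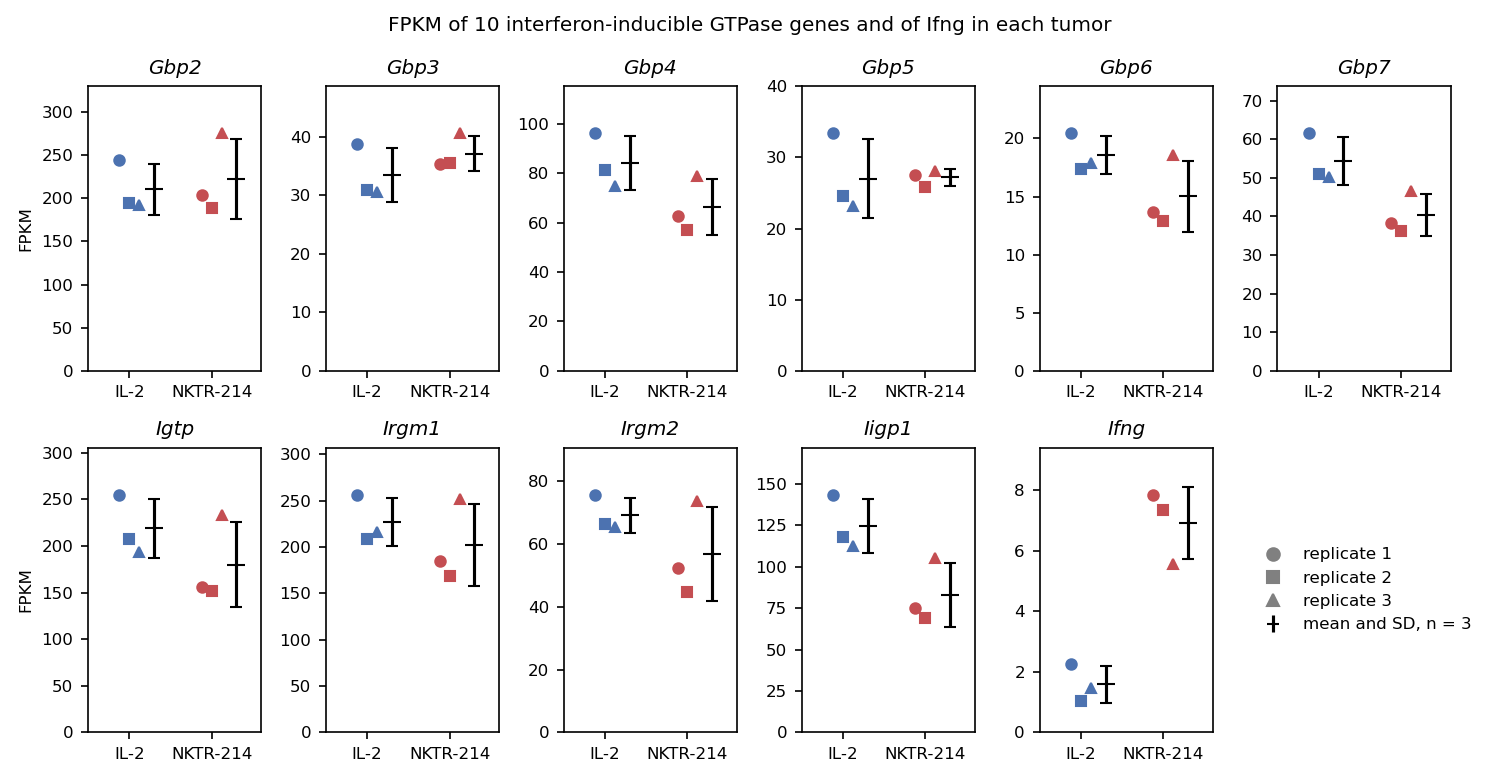
FPKM (y axis, linear from 0) of the 10 GTPase genes and of *Ifng* in the 3 ACT + IL-2 tumors (blue) and 3 ACT + NKTR-214 tumors (red), with marker shape for the replicate and black bars for the mean and SD (n = 3 each). The groups overlap in 8 of the 10 GTPase genes, and *Ifng* runs from 1.05 to 2.25 FPKM in one group and from 5.57 to 7.83 FPKM in the other.

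Among the guanylate-binding proteins, *Gbp2*, whose protein is recruited to parasite vacuoles, was the most abundant. The ACT + IL-2 tumors had 244, 194 and 192 FPKM, against 203, 188 and 275 FPKM with NKTR-214. The groups overlapped, and the highest and the lowest tumor were both ACT + NKTR-214. Means were 210.1 ± 29.5 and 222 ± 46.3 FPKM (SD, n = 3 each), and the log2 fold change of 0.07 had a 95% confidence interval from -0.37 to 0.51 (limma, adjusted p = 0.839). *Gbp2* ranked above 99.4% of the genes tested by mean FPKM.

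*Gbp5*, which encodes a protein that promotes inflammasome assembly, had 33.4, 24.5 and 23.1 FPKM in ACT + IL-2, against 27.5, 25.9 and 28.2 FPKM in ACT + NKTR-214. The 3 ACT + NKTR-214 tumors lay inside the range of the ACT + IL-2 tumors. Its log2 fold change was 0.03 (interval -0.31 to 0.36, limma adjusted p = 0.925). *Gbp3* had 38.8, 30.96 and 30.6 FPKM in ACT + IL-2, against 35.4, 35.5 and 40.6 FPKM in ACT + NKTR-214, with overlap. The log2 fold change of *Gbp3* was 0.15 (interval -0.17 to 0.47, limma adjusted p = 0.488). The signs of these small differences depended on the scaling. Under 75th percentile scaling, TPM and quantile normalization *Gbp2* and *Gbp5* turned negative, and under TPM *Gbp3* did as well.

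*Gbp4*, *Gbp6* and *Gbp7* had lower means in ACT + NKTR-214. *Gbp7* had 61.5, 51.1 and 50.3 FPKM in ACT + IL-2, against 38.2, 36.1 and 46.5 FPKM in ACT + NKTR-214, so that each ACT + NKTR-214 tumor lay under each ACT + IL-2 tumor. The mean went from 54.3 ± 6.24 to 40.3 ± 5.47 FPKM (SD, n = 3 each), 0.742 times the ACT + IL-2 level. Its log2 fold change of -0.42 (standard error 0.16, interval -0.76 to -0.09) did not reach the threshold (limma adjusted p = 0.0531). It did so with 75th percentile scaling, TPM and quantile normalization (limma adjusted p from 0.0135 to 0.0273). Those scalings called 24.7%, 31.2% and 31.9% of the genes tested lower, beside 8.28% as fitted. The threshold was also passed with the replicate block (limma adjusted p = 0.0496) and without a trend (0.0464). With no moderation the limma adjusted p was 0.136. With 1 tumor left out it ran from 0.0333 without ACT + NKTR-214 replicate 3 to 0.255 without ACT + NKTR-214 replicate 2.

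*Gbp4* had 96.05, 81.2 and 74.8 FPKM in ACT + IL-2, against 62.7, 56.9 and 78.9 FPKM in ACT + NKTR-214. ACT + NKTR-214 replicate 3 was above the lowest ACT + IL-2 tumor. The log2 fold change was -0.35 (interval -0.71 to 0.02, limma adjusted p = 0.148, and 0.0418 with TPM). *Gbp6*, the least abundant of the 10, had 20.4, 17.4 and 17.9 FPKM in ACT + IL-2, against 13.6, 12.9 and 18.5 FPKM in ACT + NKTR-214, and its log2 fold change was -0.30 (interval -0.64 to 0.04, limma adjusted p = 0.174).

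The 4 immunity-related GTPases had negative log2 fold changes, as they did under each alternative processing tried, and 1 passed the threshold. *Iigp1* encodes IRGA6, an effector GTPase that coats parasite vacuoles. The ACT + IL-2 tumors had 143, 118 and 113 FPKM, against 74.9, 68.8 and 105 FPKM with NKTR-214. The groups did not overlap, and ACT + NKTR-214 replicate 3 lay close to the lowest ACT + IL-2 tumor. *Iigp1* fell from 125 ± 16.4 to 82.95 ± 19.5 FPKM (SD, n = 3 each), with a log2 fold change of -0.60 (standard error 0.19, interval 0.5001 to 0.872 times on the FPKM + 1 scale, limma adjusted p = 0.0256). The call was lost with no filter on low genes (adjusted p = 0.0679), with each gene's own variance (0.15), and without ACT + IL-2 replicate 2 (0.0625), ACT + NKTR-214 replicate 1 (0.0982) or ACT + NKTR-214 replicate 2 (0.132), and its adjusted p ran from 0.00324 to 0.15 over the alternatives (limma). The log2 fold change was negative throughout, from -0.79 to -0.48.

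*Irgm1*, which regulates the effector GTPases and autophagy, was the most abundant of the 10 genes in ACT + IL-2, with 256, 208 and 216 FPKM, against 185, 169 and 252 FPKM in ACT + NKTR-214. The highest ACT + NKTR-214 tumor came just under the highest ACT + IL-2 tumor, and the others lay below the ACT + IL-2 range. Its log2 fold change was -0.18 (interval -0.62 to 0.26, limma adjusted p = 0.553). *Igtp*, which encodes IRGM3, had 255, 208 and 194 FPKM in ACT + IL-2, against 156, 151 and 233 FPKM in ACT + NKTR-214, a log2 fold change of -0.30 (interval -0.75 to 0.15, limma adjusted p = 0.323). *Irgm2*, the third GMS gene, showed the same arrangement of tumors. It had 75.5, 66.3 and 65.3 FPKM in ACT + IL-2, against 52.3, 44.6 and 73.5 FPKM in ACT + NKTR-214, with a log2 fold change of -0.31 (interval -0.69 to 0.08, limma adjusted p = 0.231). With each tumor left out, the log2 fold changes ran from -0.35 to -0.066 for *Irgm1*, from -0.50 to -0.19 for *Igtp* and from -0.50 to -0.15 for *Irgm2*, the lowest of each without ACT + NKTR-214 replicate 3.

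The intervals bound what these data allow. The upper ends for the 10 genes lay between -0.20 for *Iigp1* and 0.51 for *Gbp2* on the log2 scale, a factor of at most 1.42 in FPKM + 1. The interval of *Ifng* began at 1.23, a factor of 2.35.

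In order of level, *Irgm1*, *Igtp* and *Gbp2* led in ACT + IL-2 with 227 ± 25.6, 219 ± 31.9 and 210.1 ± 29.5 FPKM (SD, n = 3 each), and their ranges overlapped. *Iigp1*, *Gbp4*, *Irgm2*, *Gbp7*, *Gbp3*, *Gbp5* and *Gbp6* followed. Of these, *Gbp4* overlapped *Irgm2* and *Gbp3* overlapped *Gbp5*, and the other neighbours did not. In ACT + NKTR-214 the leading genes were *Gbp2*, *Irgm1* and *Igtp*, again with overlapping ranges, followed by the same succession of genes. There *Iigp1* overlapped *Gbp4*, and neighbours from *Gbp4* down to *Gbp3* overlapped as well, whereas *Gbp5* and *Gbp6* stood apart. The highest mean was 12.2 times the lowest in ACT + IL-2 and 14.8 times in ACT + NKTR-214.

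The GTPase genes ranked the tumors of a group alike. Within ACT + IL-2, replicate 1 was the highest for 10 of 10 genes, a place it held for 55.4% of the genes tested. Within ACT + NKTR-214, replicate 3 was the highest for 10 of 10 genes, a place it held for 14.6% of the genes tested. Replicate 2 was the lowest there for 9 genes and replicate 1 for *Gbp3*. ACT + NKTR-214 replicate 3 exceeded the mean of its 2 group mates by a factor of 1.05 for *Gbp5* to 1.52 for *Irgm2*. The same tumor had the lowest *Ifng* of its group, at 0.735 times the mean of the others, and the lowest T cell marker *Cd3e*, at 0.48 times. Among the transcription factors, *Irf1* (1.22 times) and *Batf2* (1.46 times) were also highest in that tumor, as was *Irf9* (14.1, 14.6 and 15.4 FPKM in the 3 tumors), whereas *Irf8* was lowest in it (48.9, 53.96 and 44.01 FPKM). The chemokine gene *Cxcl9* was lowest in it, at 0.633 times the mean of the others, whereas *Nos2* and *Cd274* were highest in it. By list, that tumor was the highest of its group for 8 of 18 genes of the IFN-γ axis, 10 of 16 other GTPases and 14 of 20 type I interferon-stimulated genes, and for 0 of 12 MHC class I genes and 0 of 8 inflammasome genes. Without this tumor the median log2 fold change of the 10 genes was -0.46, and *Gbp7* (adjusted p = 0.0333) and *Iigp1* (adjusted p = 0.00324) were lower (limma).

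**Figure D3:**
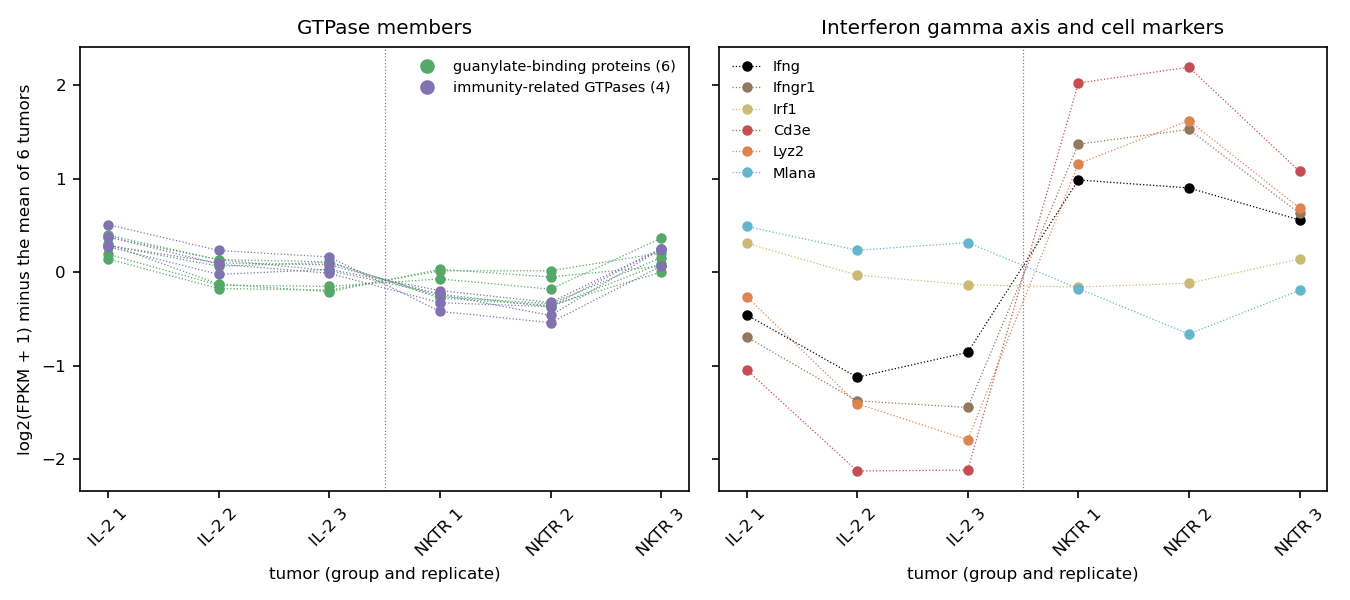
log2(FPKM + 1) of each gene minus its mean over the 6 tumors (y axis) for the 10 GTPase genes (left, by family) and for *Ifng*, *Ifngr1*, *Irf1* and the markers *Cd3e*, *Lyz2* and *Mlana* (right). Dotted lines join the points of 1 gene and carry no order of tumors. ACT + NKTR-214 replicate 3 is the highest of its group for 10 of 10 GTPase genes, and *Ifng* and *Cd3e* are lowest in it.

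The pathway that feeds these genes was followed from ligand to targets in 18 genes. Of these, 8 were higher and 1 was lower (limma), with a median log2 fold change of 0.32, beside 20.7% higher and 8.28% lower of the genes tested. The ligand *Ifng* rose from 1.59 ± 0.612 to 6.91 ± 1.19 FPKM (SD, n = 3 each) and the receptor chain *Ifngr1* from 12.04 ± 4.01 to 65.7 ± 19.99 FPKM, log2 fold changes of 1.63 and 2.35 (limma adjusted p = 8.29e-06 and 1.93e-06). The other chain, *Ifngr2*, had 26.4 ± 4.49 and 31.4 ± 2.31 FPKM with overlap (log2 fold change 0.26, limma adjusted p = 0.241). The receptor kinases *Jak1* and *Jak2* rose by 0.87 and 0.64 on the log2 scale (limma adjusted p = 0.00077 and 0.00353).

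Downstream of the kinases, *Irf1*, an IFN-γ target that drives ISRE promoters, was not called. It had 83.9, 65.97 and 61.3 FPKM in ACT + IL-2, against 60.3, 62.1 and 74.5 FPKM in ACT + NKTR-214 (log2 fold change -0.09, interval -0.45 to 0.26, limma adjusted p = 0.724). The groups overlapped. Among the factors, *Batf2*, an interferon-induced transcription factor gene, fell from 34.7 ± 5.01 to 19.8 ± 4.72 FPKM (SD, n = 3 each) without overlap (log2 fold change -0.79, limma adjusted p = 0.00254). *Irf8*, a factor of myeloid cells, rose by 0.53 on the log2 scale (limma adjusted p = 0.0265), and for *Irf9* the log2 fold change was 0.21 (limma adjusted p = 0.338).

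Of the regulators, *Socs1*, an inhibitor of the JAK kinases, rose from 18.4 ± 5.78 to 33.6 ± 4.11 FPKM (n = 3 each, SD), the log2 difference being 0.87 (limma adjusted p = 0.00225), and for the phosphatase gene *Ptpn2* the log2 fold change was 0.38 (limma adjusted p = 0.0698). The MHC transactivators *Nlrc5* and *Ciita* had log2 fold changes of 0.18 and 0.13 and did not pass, although the ranges of *Nlrc5* were apart. Among the targets, *Nos2* (nitric oxide synthase) rose 4.39-fold in mean FPKM and *Cd274* (PD-L1) 2.44-fold, limma adjusted p = 1.96e-06 and 2.95e-05. *Cxcl9* had 81.9, 56.4 and 46.4 FPKM in ACT + IL-2, against 61.4, 73.5 and 42.7 FPKM in ACT + NKTR-214. *Cxcl10* had 152, 121 and 114 FPKM against 125, 135 and 135 FPKM. Neither chemokine gene passed (log2 fold changes -0.05 and 0.03), and *Ido1*, near 1 FPKM or lower, had -0.21.

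**Figure D4:**
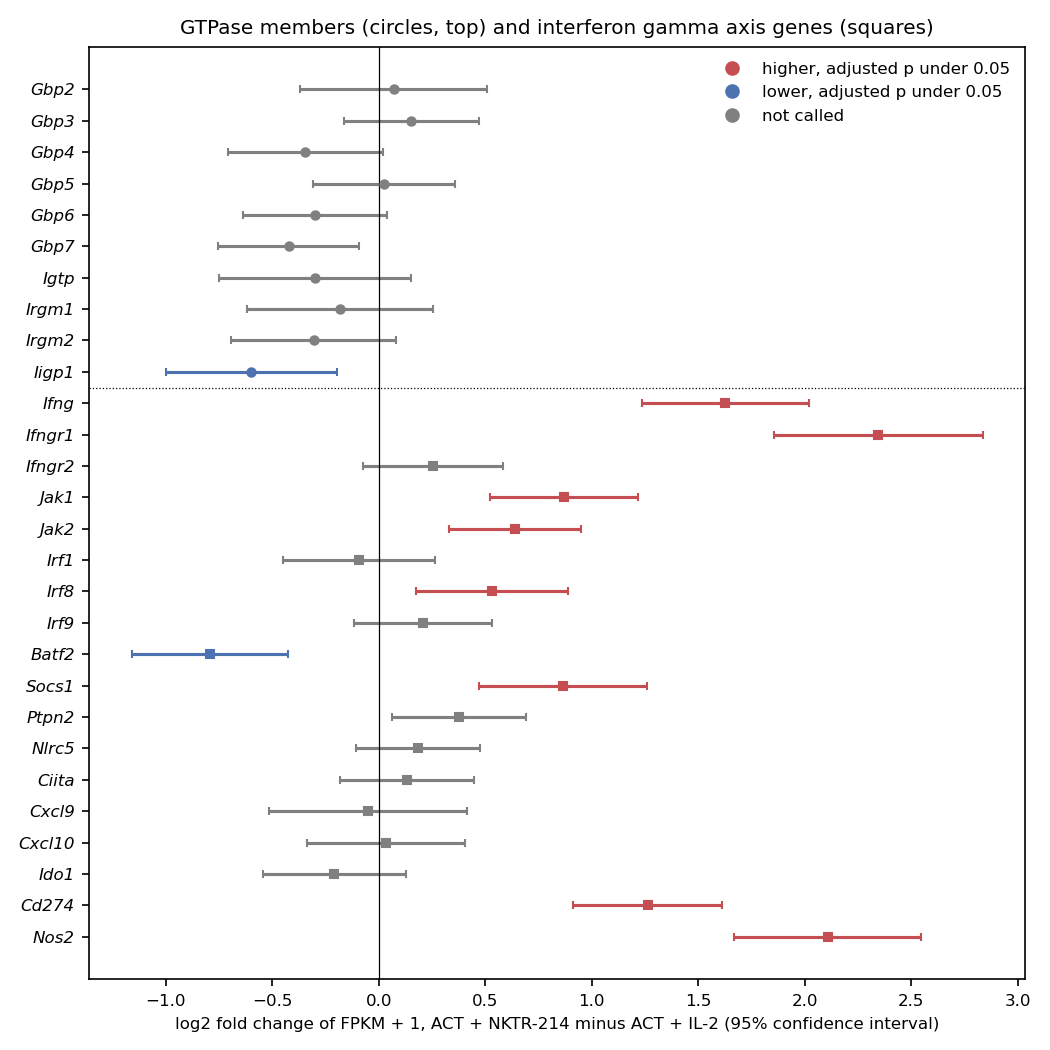
log2 fold change of FPKM + 1, ACT + NKTR-214 minus ACT + IL-2 (x axis), with 95% confidence intervals from limma (n = 3 each) for the 10 GTPase genes (circles, top) and the 18 genes of the IFN-γ axis (squares). Red and blue mark genes higher and lower at an adjusted p under 0.05. The GTPase values lie between -0.60 and 0.15, *Irf1* lies at -0.09, and *Ifng*, *Ifngr1* and *Nos2* lie between 1.63 and 2.35.

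To set GTPase transcripts against the ligand within each tumor, their FPKM was divided by that of *Ifng*, a ratio that no single factor per library alters. For *Iigp1* the ratio was 63.7, 113 and 77.02 in ACT + IL-2 and 9.56, 9.398 and 18.9 in ACT + NKTR-214. For *Gbp2* it was 108, 185 and 131 against 25.9, 25.7 and 49.4. The ratio was lower in each ACT + NKTR-214 tumor than in any ACT + IL-2 tumor for 10 of 10 genes, with log2 differences from -2.78 for *Iigp1* to -2.02 for *Gbp3* (exact two-sided permutation test, p = 0.1 for each of the 10 ratios, before and after Benjamini-Hochberg adjustment, the smallest that 3 against 3 tumors allow). The same held for 86.9% of the genes tested, so the ratio does not set the GTPases apart.

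Other genes of the same families were examined from a list of 19, of which 16 were found by symbol and tested. Of these, 4 were higher, 2 were lower and 10 did not pass (limma), beside 20.7% higher and 8.28% lower of the genes tested. The median log2 fold change was 0.00. *Gbp8* rose from 15.6 ± 2.61 to 23.9 ± 1.57 FPKM (n = 3 each, SD), the log2 difference being 0.60 (limma adjusted p = 0.00718). Its values of 18.2, 15.5 and 12.99 FPKM in ACT + IL-2 lay under those of 22.8, 23.1 and 25.7 FPKM in ACT + NKTR-214. *Gbp9* and *Gbp11*, from the same chromosome 5 cluster, had log2 fold changes of 0.38 and 0.50 without overlap and missed the threshold (limma adjusted p = 0.0532 and 0.0521). *Gbp10* was lower in that cluster, from 16.99 ± 2.05 to 11.2 ± 4.63 FPKM with overlap (log2 fold change -0.63, limma adjusted p = 0.0371), and 73.3% of its 50-base windows also occur in *Gbp6*. The *Gbp10* call was lost with each of the 3 other scalings (limma adjusted p from 0.0517 to 0.0801) although its log2 fold change was then larger (-0.85 to -0.70), and *Gbp8* kept its call in them. Over the list, 3 were lower with 75th percentile scaling, 4 with TPM and 3 with quantile normalization, and 5, 5 and 4 were higher. Among the genes tested, 24.7%, 31.2% and 31.9% were lower with these scalings, and 23.8%, 20.6% and 19.0% were higher.

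Among the effector immunity-related GTPases, log2 fold changes in limma were -0.51 for *Gm12250* (IRGB10, adjusted p = 0.0502), -0.36 for *Ifi47* (IRGD, adjusted p = 0.128), -0.41 for *Tgtp1* (IRGB6, adjusted p = 0.124) and -0.38 for *Tgtp2* (adjusted p = 0.135). The *Tgtp1* and *Tgtp2* values are uncertain, since 79.4% of *Tgtp1* windows occur in *Tgtp2*. *Gm4841*, which lies near *Iigp1*, fell from 9.66 ± 1.41 to 5.37 ± 2.01 FPKM (n = 3 each, SD), the log2 difference being -0.78 (limma adjusted p = 0.007). The 3 further genes that rose were low, *Gm5431* (0.495 to 1.16 FPKM), *9930111J21Rik1* (0.585 to 1.15 FPKM) and *Irgc1* (0.0163 to 0.264 FPKM), the last a gene best known from testis. The values of *9930111J21Rik1* and *Gm5431* are uncertain, since 83.2% and 37.3% of their windows occur in another gene. *Gbp2b*, *F830016B08Rik* and *Irgq* had log2 fold changes of 0.19, 0.27 and -0.19 and did not pass. *9930111J21Rik1* was no longer called with quantile normalization (limma adjusted p = 0.206).

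Neighbouring interferon programs were set beside the GTPases as counts. Of 12 genes of MHC class I presentation and the immunoproteasome, 6 were higher and 0 were lower (limma, median log2 fold change 0.56), and 8 or 9 were higher with the 3 other scalings. Of 8 inflammasome genes, whose products act with guanylate-binding proteins, 5 were higher and 0 were lower (median 0.86). Of 20 type I interferon-stimulated antiviral genes, 4 were higher and 1 was lower (median 0.15). Beside these list counts, 20.7% of the genes tested were higher and 8.28% were lower, shares near those of the antiviral list. At an unadjusted p under 0.05, 0 genes of the MHC class I list, 0 of the inflammasome list and 2 of the antiviral list were lower. Higher genes numbered 8, 7 and 8 in these lists, beside 26.2% higher and 13.2% lower of the genes tested. *H2-K1*, a classical MHC class I heavy chain, rose from 456 ± 88.8 to 1018 ± 98.5 FPKM (log2 fold change 1.17, limma adjusted p = 0.00304), and *H2-D1*, another heavy chain, rose by 1.10 on the log2 scale (limma adjusted p = 0.00473). With quantile normalization both rises were smaller, 0.62 for *H2-K1* and 0.46 for *H2-D1*. *Psmb10*, an immunoproteasome subunit, had 0.15 (limma adjusted p = 0.52). In the inflammasome list, *Aim2*, a DNA sensor, rose by 1.85 and *Gsdmd*, the pore-forming gasdermin, by 1.12 on the log2 scale (limma adjusted p = 2.38e-06 and 6.55e-05), and *Pycard*, the adaptor ASC, had 0.34 (limma adjusted p = 0.155). In the antiviral list, *Oas3* and *Oasl1* rose by 1.19 and 1.00 on the log2 scale (limma adjusted p = 0.00011 and 0.000285) and *Cmpk2* fell by 0.44 (limma adjusted p = 0.0489). These counts describe the lists, and no test of one list against another was made.

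**Figure D5:**
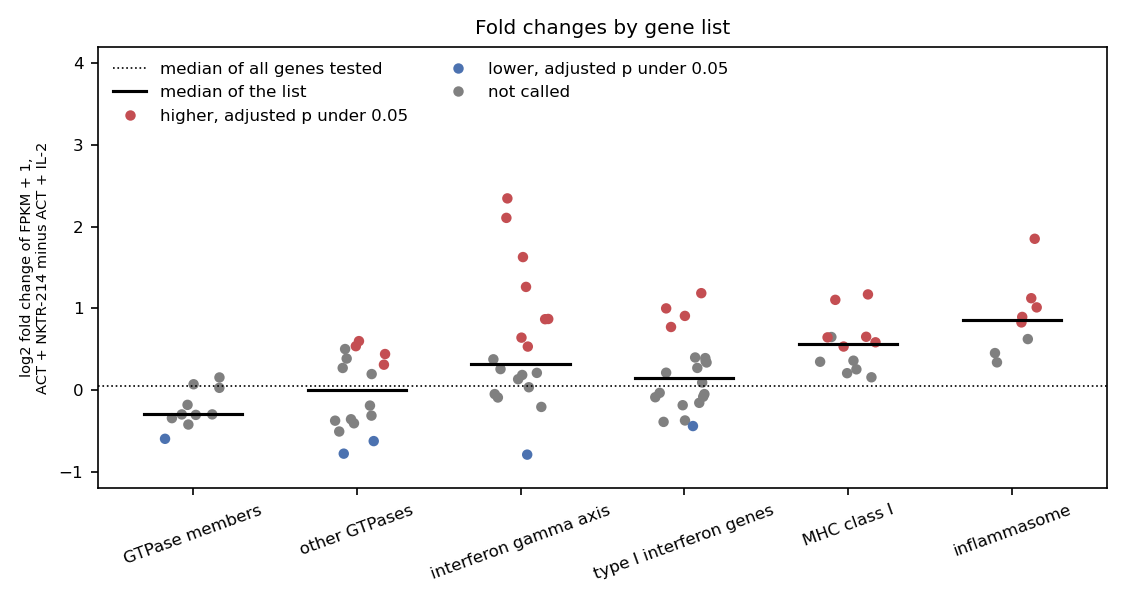
log2 fold change of FPKM + 1, ACT + NKTR-214 minus ACT + IL-2 (y axis), for each tested gene (point) of 6 lists, with red and blue for genes higher and lower by limma at an adjusted p under 0.05, a black bar for the median of the list and a dotted line for the median of the genes tested (0.05). The GTPase members have a median of -0.30 and the inflammasome genes one of 0.86.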

How the data were processed

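Whole B16-F10 tumors taken at day 12 were measured by RNA-seq (50-base single-end reads), 3 mice per group with 1 library each. The authors mapped reads to GRCm38 with HISAT2 2.0.4, used HTSeq to count reads of each gene, and deposited linear FPKM values of 21358 entries. Read counts were not used here. Depth was estimated from the steps of low values, which were whole multiples of 1 step (within 0.05 to 0.2 of a read) in 670 of 1041 low genes (64.4%), and from GENCODE exon lengths (quartiles over 148 genes, 16.1 to 23.7 M reads in 1 library), and errors are those between tumors.

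Groups were taken from the sample titles. Genes whose mean FPKM reached 0.1 were fitted as log2(FPKM + 1) with limma 3.58.1 in R 4.3.3 (lmFit, eBayes with an intensity trend) without a block, with Benjamini-Hochberg adjustment over 14172 genes. Intervals are limma's at 95%. Log2 fold changes are ACT + NKTR-214 minus ACT + IL-2. The fit was tested on simulated data. Single ratios were compared with exact permutation tests in scipy 1.17.1. The alternatives tried were 0.1 as the pseudocount, a filter at a mean FPKM of 1 or none, 75th percentile scaling, TPM, quantile normalization, no trend, no moderation, the replicate number as a block, and each tumor left out. The genes named are the 10 members, genes of the pathway and family lists, and the 2 largest and the smallest log2 fold changes of each other list. The 5 nearest profiles are named too (8 were planned). Cell markers outside that rule, such as *Cd3e*, were also named. An item of the IFN-γ axis is not reported here. The members and lists were chosen with earlier results of these data known. Motifs were sought in RefSeq promoters (GRCm38.p6). Figures used matplotlib 3.10.9 and tables pandas 2.3.3 in Python 3.11.15.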

Additional observations from a re-analysis of the deposited data

How the results depend on the processing

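The count of GTPase genes higher in ACT + NKTR-214 was 0 under each of the 15 alternatives, with 0 at an unadjusted p under 0.05. Lower genes at an unadjusted p under 0.05 numbered 2 as fitted, 3 with 75th percentile scaling, 4 with TPM and 6 with quantile normalization, beside 29.0%, 35.9% and 36.7% of the genes tested with these scalings, and 1 to 5 with each tumor left out (5 without ACT + NKTR-214 replicate 3, beside 10.2%). The count of lower genes was 2 with 75th percentile scaling, quantile normalization, eBayes without trend and the replicate block, 3 with TPM, and 0 with no filter and with no moderation, and it ran from 0 to 2 with each tumor left out. The median log2 fold change of the 10 genes stayed negative (-0.46 to -0.17 with each tumor left out). Of 150 pairs of a gene and an alternative, 128 kept direction and side of the threshold, and the cause of the others was not tested. The log2 fold change turned negative for *Gbp2* with 75th percentile scaling (-0.015), TPM (-0.11) and quantile normalization (-0.17), for *Gbp5* with the same scalings (-0.056, -0.15 and -0.063) and for *Gbp3* with TPM (-0.025). With each tumor left out it ran from -0.093 to 0.18 for *Gbp2*, where it was negative without ACT + NKTR-214 replicate 3, and from -0.073 to 0.18 for *Gbp5*, where it was negative without ACT + IL-2 replicate 2 or 3.

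Over the genes tested, 2940 were higher and 1173 were lower (71.5% of calls higher). Lower genes numbered 3501 with 75th percentile scaling (49.0% of calls higher), 4426 with TPM (39.8%) and 4525 with quantile normalization (37.3%). TPM moved the median log2 fold change of the genes tested by -0.15 and quantile normalization by -0.14. Relative to the median of the genes tested, the median of the GTPase genes was -0.35 as fitted, -0.38 with TPM and -0.35 with quantile normalization, and it ran from -0.54 (without ACT + NKTR-214 replicate 3) to -0.20 (without ACT + NKTR-214 replicate 2) with each tumor left out. With no moderation, 101 genes were higher and 27 lower, with 0 of the IFN-γ axis and 0 of the other GTPases higher, and *Ifng* had an adjusted p of 0.0597 (limma). Other GTPases that were higher numbered 2 with a minimum mean FPKM of 1, which leaves low genes untested, and 3 to 7 with each tumor left out (7 without ACT + IL-2 replicate 1). Genes tested that were higher numbered 2005 to 3476 and lower ones 636 to 1996 with each tumor left out (1996 without ACT + IL-2 replicate 2, with 50.1% of calls higher, 680 without ACT + NKTR-214 replicate 2, and 636 without ACT + IL-2 replicate 3). The replicate numbers stand for different mice, and deviations of same-numbered tumors correlated at -0.21, -0.07 and 0.40 over genes, so the numbers do not pair the tumors. The replicate block brought *Gbp7* past the threshold (adjusted p = 0.0496 from limma) and changed no other call of the 10 genes. Intervals of single genes up to a factor of 1.42 leave small rises undetectable at this number of tumors.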

Other observations

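Genes outside the 10 were ranked by how near their profile over the 6 tumors lay to the mean profile of the GTPases, as the root mean square difference of centred log2(FPKM + 1) values, among the 11548 genes whose mean FPKM reached 1. The 5 nearest were *Olfr56* (0.0552), *Il17rc* (0.0569), *Ifit2* (0.0673), *Gm4951* (0.0831) and *Phf11d* (0.0879), against a median of 0.277 over the candidates. *Gm4951* is an immunity-related GTPase gene and *Ifit2* is an interferon-induced antiviral gene. *Olfr56* shares exon bases with the immunity-related GTPase gene *Ifi47*, so its reads cannot be told apart from those of *Ifi47* where they overlap. *Il17rc* had 24.2, 19.6 and 19.8 FPKM in ACT + IL-2 and 18.1, 17.2 and 21.9 FPKM in ACT + NKTR-214. The ranking is a description over 6 tumors and was not tested.

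The machinery that guanylate-binding proteins and immunity-related GTPases rely on was also measured. Of 10 autophagy conjugation genes, which place these GTPases on vacuoles, *Atg12* alone was higher and 0 were lower (limma), and at an unadjusted p under 0.05, 3 were higher and 0 were lower. With 75th percentile scaling 3 were higher and 0 lower, with TPM 2 higher and 1 lower, and with quantile normalization 2 higher and 0 lower. *Atg12*, part of the conjugate that lipidates ATG8 proteins, rose by 0.51 on the log2 scale (9.21 ± 1.37 against 13.5 ± 0.807 FPKM, SD, n = 3 each, adjusted p = 0.0175 from limma). *Gabarap* had a log2 fold change of 0.40 and *Atg16l1* of -0.02, and neither passed. Of 5 enzymes that prenylate and process CaaX proteins, a group to which *Gbp2* and *Gbp5* belong, 0 passed the threshold, with 1 higher and 1 lower at an unadjusted p under 0.05 (limma). Under quantile normalization or 75th percentile scaling, 1 was higher and 2 were lower, and under TPM 1 was higher and 3 were lower. For both lists, the shares of the genes tested that were lower are 24.7% (75th percentile), 31.2% (TPM) and 31.9% (quantile). The shares that were higher are 23.8%, 20.6% and 19.0%. As fitted, 20.7% were higher and 8.28% were lower. The log2 fold change was 0.42 for *Rce1*, a protease of that pathway (adjusted p = 0.0538), -0.0019 for *Pggt1b*, and -0.40 for *Fnta*, the shared farnesyl and geranylgeranyl transferase subunit (adjusted p = 0.0707 from limma).

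ISRE letters stood in the promoter windows of 2 of 12 IFN-γ axis genes with an entry, *Cxcl10* and *Socs1*, and GAS letters in 3, *Ifng*, *Irf1* and *Irf8*. Of 15 type I interferon-stimulated genes with an entry, 6 held ISRE letters and 3 held GAS letters. In the MHC class I list the counts were 1 and 1 of 11.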
